A study of Mus musculus with 9 samples.

Results

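The Tex (testis-expressed) genes share a naming rule rather than an ancestor, since most of them were named after transcripts found in the mouse testis. The 9 Tex genes described here were chosen by name: Tex11, Tex14, Tex15, Tex19.1, Tex19.2, Tex101, Tex9, Tex10 and Tex2. Earlier results of these data were known when they were chosen, so counts among them describe these 9 only. They are 9 of the 32450 genes and other transcript identifiers with a usable probe, and all 9 were among the 20443 that were tested. Each of the 9 probes used was well above the local background on all 9 arrays. A further 26 Tex genes had probes, of which 13 were tested.

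RNA was measured on one-colour Agilent mouse arrays in 3 groups of 3 arrays. The first group was primordial germ cells (PGCs), GFP-positive cells sorted from male E13.5 genital ridges of MCH x C57BL6/J embryos that carry the Oct4ΔPE-GFP reporter. The second group was VV3 embryonic stem (ES) cells given siRNA against Max, which encodes the dimerization partner of the Myc and Mga transcription factors. The third group was VV3 ES cells given the AllStars non-silencing siRNA. VV3 is a male 129SV ES cell line in which the Vasa (Ddx4) promoter drives the fluorescent protein Venus, grown in medium with KSR, FBS and LIF, and both ES groups were sorted 3 days after transfection. Max knockdown cells were gated as Venus-positive, whereas control ES cells were gated as live single cells, so siRNA and gate differ together between the ES groups. PGCs and ES cells also differ in strain, slide and culture, which cannot be told apart from cell type. Both ES groups come from 1 line.

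Max had levels of 3.57 to 3.77 in PGCs, 0.59 to 1.13 in Max knockdown cells and 2.74 to 2.85 in control ES cells. A level is the log2 signal minus the 75th percentile of log2 signals on the same array, so 0 marks that percentile, and levels of different probes are not compared. Max was lower in Max knockdown cells than in control ES cells by a log2 difference of -1.96 ± 0.14 (SE, n = 3 each, limma, adjusted p = 2.9e-05). Ddx4, whose promoter the Venus gate reads, was higher in Max knockdown cells by 2.64 on the log2 scale (limma, adjusted p = 6.7e-06). The pluripotency gene Pou5f1 (Oct4) differed by 0.04 (95% interval -0.23 to 0.31) between Max knockdown and control ES cells. Of 12 pluripotency markers, Pou5f1 included, 4 were higher and 1 lower in Max knockdown minus control (median 0.43), against 18.2% and 21.9% of all genes. In PGC minus control 4 were higher and 7 lower (median -0.78), against 43.2% and 32.4%. These calls are at an adjusted p under 0.05 (limma). Ddx4 was also among 14 germ cell markers. Of these, 14 were well above background on all PGC arrays, 13 on all Max knockdown arrays and 12 on all control arrays. Their summed signals were 137 to 158 in PGCs, 50.8 to 60.4 in Max knockdown cells and 16.8 to 21.4 in control ES cells. All summed signals are in multiples of each array's 75th percentile. Markers of gonadal somatic cells summed to 7.09 to 13.3 in PGCs, 4.46 to 4.54 in Max knockdown cells and 4.93 to 5.43 in controls. Of the 15 gonadal somatic markers, 12 were well above background on all PGC arrays, 7 on all Max knockdown arrays and 10 on all control arrays. Fibroblast markers summed to 1.19 to 1.51 in PGCs, 1.47 to 1.79 in Max knockdown cells and 4.08 to 6.34 in control ES cells. Blood and endothelium markers summed to 2.67 to 4.04, 1.97 to 2.98 and 1.71 to 2.39 in the same order of groups. The part of these other cells in the Tex results was not tested.

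Several Tex proteins act at successive steps of germ cell life. TEX11, encoded on the X chromosome, takes part in meiotic crossing over. TEX15 is needed for male meiosis and for silencing of transposons in the male germline. TEX14 keeps open the intercellular bridges that join dividing germ cells. The TEX19 paralogs, found only in mammals, restrain retrotransposons, and TEX19.1 binds the ubiquitin ligase UBR2. TEX101 is a glycosylphosphatidylinositol-anchored protein of the germ cell surface that is needed for sperm to enter the oviduct. In contrast, TEX10 belongs to a nucleolar complex for ribosome maturation and has been described as a partner of SOX2 in ES cells, and TEX2 is an endoplasmic reticulum protein with a lipid-transfer domain.

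Promoter windows of 300 bases, from 250 bases before to 50 bases after the annotated start, were found in RefSeq (GRCm38.p6) for 7 of the 9 genes. There was none for Tex11 and Tex15. Of the following 5, 4 belong to genes that rose in Max knockdown cells and 1, that of Tex10, to a gene that did not pass that test. Windows of Tex9 and Tex2, which also did not pass, are not printed, so the 5 do not compare motifs between these sets of genes. Capitals mark a match to CACGTG, the palindromic E-box, or to GGCGGGA, an E2F-type motif, and lower case marks all other bases.
Tex14: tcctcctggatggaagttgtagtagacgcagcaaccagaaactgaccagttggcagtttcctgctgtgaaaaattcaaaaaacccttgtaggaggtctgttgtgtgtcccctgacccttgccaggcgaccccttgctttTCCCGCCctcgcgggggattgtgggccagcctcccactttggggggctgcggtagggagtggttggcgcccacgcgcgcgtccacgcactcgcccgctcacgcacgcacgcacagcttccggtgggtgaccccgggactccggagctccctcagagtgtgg
Tex19.1: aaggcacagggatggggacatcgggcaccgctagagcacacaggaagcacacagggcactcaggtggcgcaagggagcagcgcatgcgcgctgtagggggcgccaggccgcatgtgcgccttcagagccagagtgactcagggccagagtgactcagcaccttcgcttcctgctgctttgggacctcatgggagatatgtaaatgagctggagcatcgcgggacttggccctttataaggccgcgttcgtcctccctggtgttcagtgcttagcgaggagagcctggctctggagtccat
Tex19.2: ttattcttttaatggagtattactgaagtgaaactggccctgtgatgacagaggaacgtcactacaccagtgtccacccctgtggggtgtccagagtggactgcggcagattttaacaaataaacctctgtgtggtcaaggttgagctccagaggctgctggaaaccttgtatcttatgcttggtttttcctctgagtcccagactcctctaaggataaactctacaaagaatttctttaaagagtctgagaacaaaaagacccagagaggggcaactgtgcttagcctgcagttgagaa
Tex101: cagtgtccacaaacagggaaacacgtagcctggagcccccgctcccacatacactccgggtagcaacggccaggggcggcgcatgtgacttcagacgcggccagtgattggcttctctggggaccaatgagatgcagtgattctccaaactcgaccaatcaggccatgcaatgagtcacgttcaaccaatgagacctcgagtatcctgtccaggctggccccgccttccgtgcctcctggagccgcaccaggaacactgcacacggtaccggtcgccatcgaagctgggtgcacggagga
Tex10: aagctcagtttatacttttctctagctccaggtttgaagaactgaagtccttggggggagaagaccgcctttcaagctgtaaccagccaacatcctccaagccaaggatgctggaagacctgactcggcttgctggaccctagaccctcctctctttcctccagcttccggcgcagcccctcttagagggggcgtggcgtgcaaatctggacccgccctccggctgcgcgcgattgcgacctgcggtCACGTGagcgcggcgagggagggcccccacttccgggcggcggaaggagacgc

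The Tex14 window lies at chr11:87404815-87405114 on the plus strand. It holds GGCGGGA on the minus strand, which reads TCCCGCC on the plus strand, where it begins 111 bases before the start. The windows of Tex19.1 (chr11:121145893-121146192, plus strand), Tex19.2 (chr11:121118628-121118927, minus strand) and Tex101 (chr7:24672001-24672300, minus strand) held no match on either strand to these motifs or to a T-box type motif, AGGTGTGA. The Tex10 window (chr4:48473414-48473713, minus strand) holds CACGTG, which begins 3 bases before the start. Windows of Tex9 and Tex2 each held 1 match to GGCGGGA, at 78 and 70 bases before the start. Among the 32851 RefSeq windows of this length, 7.15% held CACGTG, 11.3% held GGCGGGA and 1.28% held AGGTGTGA. The 3 motifs do not overlap in the windows that hold one, and a match describes the letters only.

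The windows also differed in CpG content. Tex19.2 had 2 CpG dinucleotides and its paralog Tex19.1 had 16, against a median of 7 over all windows. Tex14 had 20, Tex101 had 19, Tex9 had 17, Tex10 had 21 and Tex2 had 41. Tex19.1 and Tex19.2 lie on chromosome 11 with no other gene between them in the RefSeq table.

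Tex11, Tex15, Tex14, Tex19.1, Tex19.2 and Tex101 rose in Max knockdown cells relative to control ES cells, by 2.08-fold for Tex14 to 31.4-fold for Tex101. Tex9, Tex10 and Tex2 did not pass the test. Thus 6 of the 9 genes rose and 0 fell, and 0 were also lower at an unadjusted p under 0.05 (limma). Because the 9 were chosen with earlier results of these data known, the count is not a test of Tex genes as a group. Of all genes tested, 18.2% were called higher and 21.9% lower in this comparison, at an adjusted p under 0.05. Because these are bulk samples, a higher level can come from more expressing cells or from more RNA per cell.

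**Figure D1:**
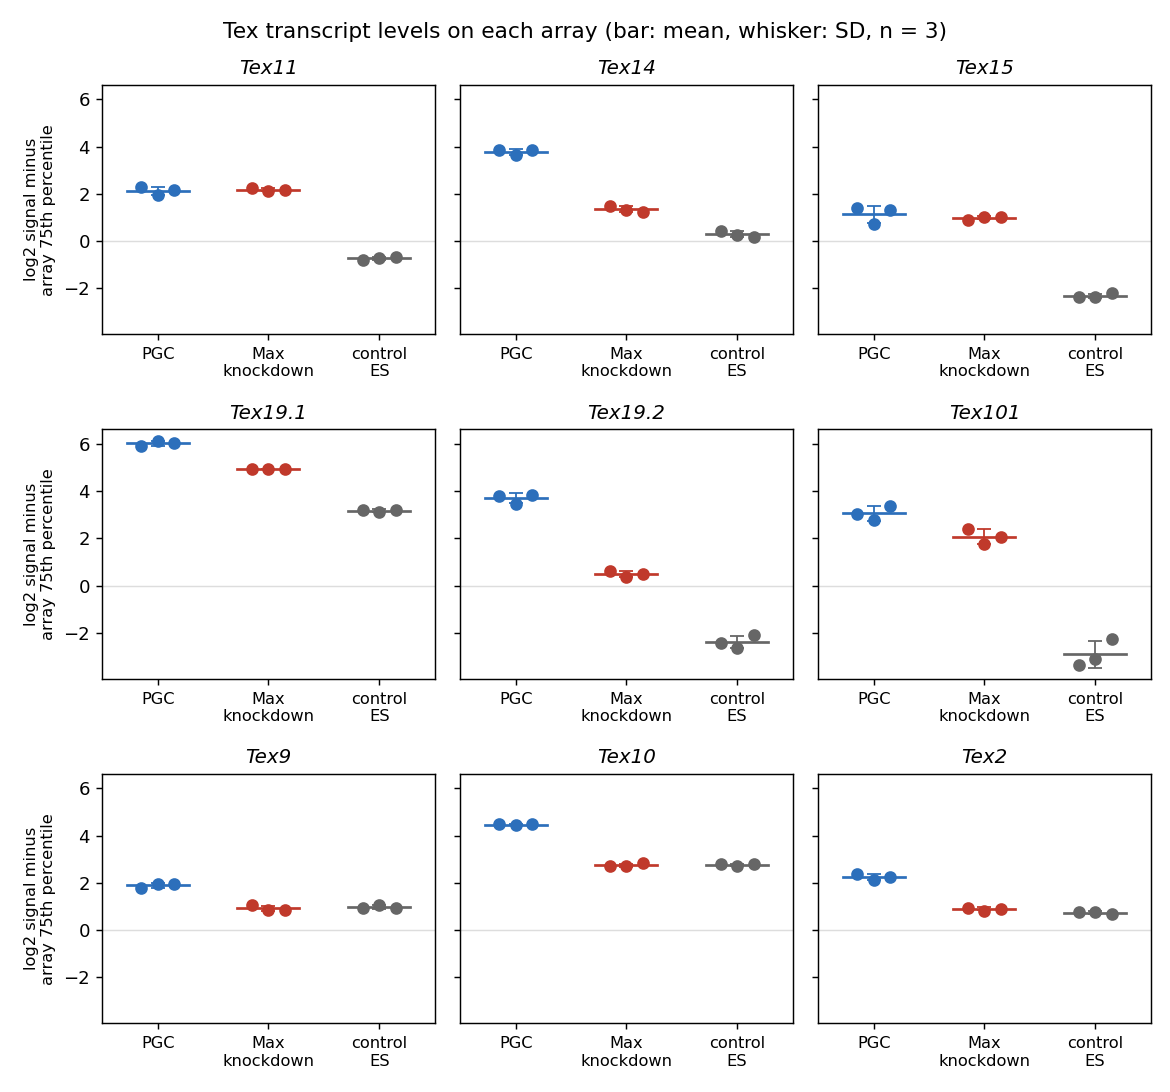
Levels of the 9 Tex genes (log2 signal minus the array's 75th percentile) in PGCs, Max knockdown ES cells and control ES cells; points are arrays, bars are means and whiskers are SDs (n = 3). For the genes in the upper and middle rows, no control array reaches a PGC or Max knockdown array, whereas Tex9 and Tex10 overlap between the ES groups.

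Tex11 had levels of 2.29, 1.95 and 2.16 in PGCs, 2.24, 2.11 and 2.18 in Max knockdown cells and -0.80, -0.72 and -0.68 in control ES cells. PGC and Max knockdown arrays overlapped, and all lay above the control arrays. The difference was 2.91 ± 0.10 (SE) between Max knockdown and control ES cells, or 7.5-fold (limma, adjusted p = 1.3e-06). Between PGCs and control ES cells it was 2.86 ± 0.10 (limma, adjusted p = 6e-08). PGCs minus Max knockdown cells gave -0.05, with a 95% interval of -0.28 to 0.18 (limma, adjusted p = 0.69). A second Tex11 probe, well above background on 1 of 3 control arrays, gave 1.98 for Max knockdown minus control and 2.27 for PGC minus control.

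Tex15 was higher in PGCs and in Max knockdown cells than in control ES cells. Its levels were 1.39, 0.71 and 1.31 in PGCs, 0.91, 1.04 and 1.01 in Max knockdown cells and -2.37, -2.36 and -2.21 in control ES cells. One PGC array lay below every Max knockdown array, and control arrays were clear of both groups. The rise in Max knockdown cells was 9.86-fold, a log2 difference of 3.30 ± 0.17 (SE, limma, adjusted p = 6.9e-06), and PGCs exceeded control ES cells by 3.45 ± 0.17 (limma, adjusted p = 2.9e-07). PGCs minus Max knockdown cells gave 0.15 (95% interval -0.23 to 0.53, limma, adjusted p = 0.44). Without PGC replicate 2 this difference was 0.36 and passed the test (limma, adjusted p = 0.0094). A second Tex15 probe was well above background on no array.

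Tex14, the bridge gene, was graded across the 3 groups. Its levels were 3.87, 3.65 and 3.86 in PGCs, 1.49, 1.31 and 1.24 in Max knockdown cells and 0.43, 0.27 and 0.17 in control ES cells. No arrays overlapped between groups. Max knockdown cells exceeded control ES cells by 1.06 ± 0.11 (SE, limma, adjusted p = 0.00021). PGCs exceeded Max knockdown cells by 2.45 ± 0.11 (limma, adjusted p = 2.3e-07) and control ES cells by 3.50 ± 0.11 (limma, adjusted p = 3.5e-08). The call between the ES groups was lost with spike-in scaling (difference 1.07, limma, adjusted p = 0.37) and with normexp background correction (0.80, limma, adjusted p = 0.063). With 13 high-background spots left out of normexp, a choice made after seeing the data, it was 1.03 and passed (limma, adjusted p = 0.00015).

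Tex19.1, the paralog that binds UBR2, was graded in the same order. Its levels were 5.92, 6.13 and 6.04 in PGCs, 4.96, 4.95 and 4.95 in Max knockdown cells and 3.21, 3.11 and 3.22 in control ES cells. The order PGC, Max knockdown, control held for every array. Max knockdown cells were 3.41-fold above control ES cells, a log2 difference of 1.77 ± 0.08 (SE, limma, adjusted p = 4.8e-06). PGCs exceeded Max knockdown cells by 1.08 ± 0.08 (limma, adjusted p = 4.6e-06) and control ES cells by 2.85 ± 0.08 (limma, adjusted p = 2.4e-08).

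Its paralog Tex19.2 spanned a wider range. Levels were 3.81, 3.47 and 3.85 in PGCs, 0.63, 0.37 and 0.49 in Max knockdown cells and -2.42, -2.63 and -2.10 in control ES cells, and no arrays overlapped. Max knockdown cells exceeded control ES cells 7.35-fold, by 2.88 ± 0.16 (SE, limma, adjusted p = 1e-05). PGCs exceeded Max knockdown cells by 3.21 ± 0.16 (limma, adjusted p = 3.4e-07) and control ES cells by 6.09 ± 0.16, or 68.2-fold (limma, adjusted p = 1.6e-08). Cross-hybridisation between the probes of the paralogs was not tested.

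Tex101 had the largest difference among the 9 genes between Max knockdown and control ES cells. Its levels were 3.03, 2.76 and 3.39 in PGCs, 2.41, 1.76 and 2.05 in Max knockdown cells and -3.34, -3.10 and -2.25 in control ES cells. No arrays overlapped, and the control arrays were the most spread. Max knockdown cells exceeded control ES cells by 4.97 ± 0.30 (SE, limma, adjusted p = 1.5e-05), and PGCs exceeded control ES cells by 5.96 ± 0.30 (limma, adjusted p = 3.5e-07). PGCs exceeded Max knockdown cells by 0.99 ± 0.30 (limma, adjusted p = 0.015). That call was lost without Max knockdown replicate 2 (0.83, limma, adjusted p = 0.055) or without PGC replicate 3 (0.82, limma, adjusted p = 0.053).

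Tex10 was higher in PGCs than in either ES group. It had levels of 4.48, 4.44 and 4.50 in PGCs, 2.72, 2.70 and 2.83 in Max knockdown cells and 2.79, 2.70 and 2.80 in control ES cells. The ES arrays overlapped. Max knockdown minus control was -0.01 (95% interval -0.19 to 0.16, limma, adjusted p = 0.92), while PGCs exceeded control ES cells by 1.71 ± 0.08 (SE, limma, adjusted p = 1.9e-07).

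Tex2 had levels of 2.36, 2.11 and 2.25 in PGCs, 0.96, 0.83 and 0.91 in Max knockdown cells and 0.78, 0.76 and 0.67 in control ES cells. The ES arrays did not overlap, but Max knockdown minus control was 0.17 (95% interval -0.04 to 0.37) and did not pass (limma, adjusted p = 0.18). PGCs exceeded control ES cells by 1.5 ± 0.09 (SE, limma, adjusted p = 9.5e-07). A second Tex2 probe gave 0.13 for Max knockdown minus control and 1.08 for PGC minus control.

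Tex9 had levels of 1.79, 1.94 and 1.95 in PGCs, 1.06, 0.85 and 0.86 in Max knockdown cells and 0.96, 1.06 and 0.92 in control ES cells. Only the ES groups overlapped. Max knockdown minus control was -0.06 (95% interval -0.27 to 0.16, limma, adjusted p = 0.67). PGCs exceeded control ES cells by 0.91 ± 0.09 (SE, limma, adjusted p = 2.6e-05).

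**Figure D2:**
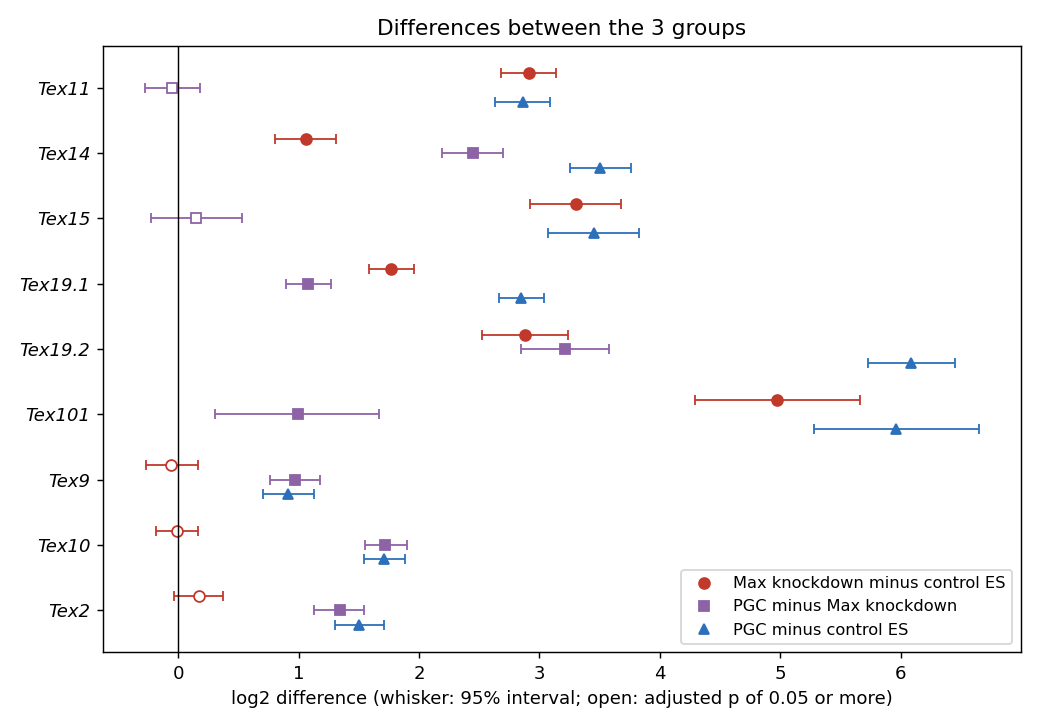
Log2 differences between groups for the 9 Tex genes, with 95% intervals; open symbols did not pass the test. Tex11 and Tex15 have PGC minus Max knockdown intervals that include 0, and Tex9, Tex10 and Tex2 have Max knockdown minus control intervals that include 0; with spike-in scaling the PGC minus control value of Tex9 is -0.04.

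Within the slide that held 2 arrays of each ES group, the Max knockdown minus control difference was 2.93 for Tex11, 3.34 for Tex15, 1.05 for Tex14, 1.79 for Tex19.1, 3.02 for Tex19.2 and 5.31 for Tex101. On the slide with 1 array of each ES group it was 2.86, 3.23, 1.08, 1.73, 2.59 and 4.30 for the same genes in that order. The 6 rises were therefore present on both slides. The PGC arrays were on other slides, so no within-slide value exists for them.

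Against control ES cells, 9 of 9 Tex genes were called higher in PGCs, where 43.2% of all genes tested were higher and 32.4% lower. Against Max knockdown cells, 7 of 9 were higher in PGCs, where 44.9% of all genes were higher and 31.4% lower. For Tex10, Tex2 and Tex9, PGC minus Max knockdown was 1.72, 1.34 and 0.97 (limma, adjusted p = 2e-07, 2.1e-06 and 1.8e-05). These comparisons share arrays with the ES comparison, and the other values for each gene stand above. PGC differences depend on the scaling, since scaling on the spike-in probes changed the median of all genes to -0.78 from 0.18 in PGC minus control and to -0.75 from 0.21 in PGC minus Max knockdown. With spike-in scaling, PGC minus control was -0.04 for Tex9, 0.75 for Tex10 and 0.55 for Tex2, and none of these 3 passed (limma, adjusted p = 0.96, 0.24 and 0.41). Under it PGC minus Max knockdown was 0.11 for Tex19.1, 0.02 for Tex101, 0.00 for Tex9, 0.75 for Tex10 and 0.37 for Tex2, which no longer passed. Tex15 was then -0.82 and Tex11 -1.02 in that comparison. The share of higher among all calls was 57.2% against 13.4% with spike-ins in PGC minus control, 58.8% against 12.1% in PGC minus Max knockdown, and 45.3% against 71.2% in Max knockdown minus control.

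Of the 26 other Tex genes, 13 were too dim to be tested, and 7 of those were well above background on no array. Among the 13 tested, 5 rose in Max knockdown cells relative to control ES cells (Tex12, Tex13b, Tex16, Tex26 and Tex30) and 0 fell, where 18.2% of all genes tested were higher and 21.9% lower; 0 were lower at an unadjusted p under 0.05 (limma). In PGCs relative to control ES cells 9 rose and 1, Tex261, fell, against 43.2% higher and 32.4% lower of all genes. In PGCs relative to Max knockdown cells 9 rose and 2, Tex26 and Tex261, fell, against 44.9% higher and 31.4% lower. A filter on low values lets a gene pass through the group in which it is high, so these counts describe the tested genes only.

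Tex12 encodes a protein of the synaptonemal complex. Its levels were 0.86, 0.58 and 0.88 in PGCs, -1.95, -2.44 and -2.23 in Max knockdown cells and -3.52, -3.58 and -3.32 in control ES cells. The groups did not overlap, and Max knockdown cells exceeded control ES cells by 1.27 ± 0.15 (SE, limma, adjusted p = 0.00031). Tex13b had levels of 2.36, 2.44 and 2.30 in PGCs, -2.38, -3.09 and -2.88 in Max knockdown cells and -3.88, -4.67 and -4.12 in control ES cells. Its PGC minus Max knockdown difference was 5.15 and its Max knockdown minus control difference was 1.44 (limma, adjusted p = 2e-07 and 0.0014). Most of the range of Tex13b thus lay between PGCs and the ES groups.

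Tex16 was well above background on all PGC and Max knockdown arrays and on none of the control arrays. For a fold, the control was set at each array's lowest signal among probes well above background. On that floor Tex16 was 6.2-fold higher in PGCs and 2.75-fold higher in Max knockdown cells than in control ES cells. A probe can read above the floor without being well above background, so these values are not strict lower bounds. Tex26 was higher in Max knockdown cells than in PGCs, with levels of -4.35, -4.63 and -4.20 in PGCs against -3.31, -3.14 and -3.19 in Max knockdown cells, a PGC minus Max knockdown difference of -1.18 (limma, adjusted p = 0.0012); 2 of 3 PGC arrays were well above background. Tex261 had levels of -0.13, 0.15 and 0.09 in PGCs against 0.84, 0.89 and 1.04 in control ES cells, a difference of -0.89 (limma, adjusted p = 6.6e-05).

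**Figure D3:**
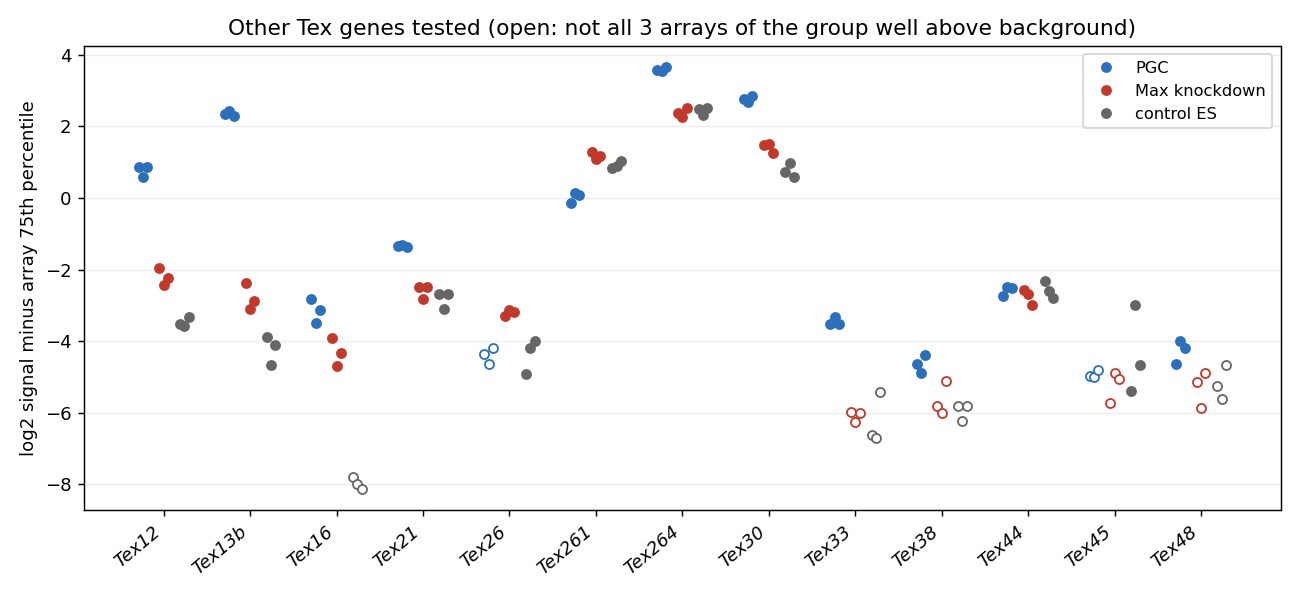
Levels (log2 signal minus the array's 75th percentile) of the 13 other Tex genes tested; each point is 1 array, 3 for each group. Open points belong to groups in which not all 3 arrays were well above background, such as Tex16 in control ES cells.

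Genes that share a pathway, complex, site or family with a Tex protein were then counted from lists by role. Each list leaves out the 9 Tex genes, and a place in a list does not mean a known link to the Tex protein. The lists were chosen with earlier results of these data known, so their counts describe the listed genes and do not test a pathway. Of all genes tested, 18.2% were higher and 21.9% lower in Max knockdown minus control (median -0.07), and 43.2% were higher and 32.4% lower in PGC minus control (median 0.18). Of 20 tested crossover and synaptonemal complex genes, the setting of TEX11, 17 rose and 0 fell in Max knockdown cells (median 1.85), with 3 not passing, and 16 rose and 3 fell in PGCs relative to control ES cells (median 1.93). Sycp3, a structural protein of the meiotic chromosome axis, rose by 3.62 in Max knockdown cells and by 3.03 in PGCs relative to control ES cells (limma, adjusted p = 1.8e-06 and 2.3e-07). Syce1, of the central element, was 2.89 higher in Max knockdown cells (limma, adjusted p = 1.2e-06), and Tex12 was 4.24 higher in PGCs than in control ES cells (limma, adjusted p = 5.1e-08).

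Transposon silencing genes, the setting of TEX15, gave 13 higher and 2 lower of 19 in Max knockdown cells (median 1.86), against 18.2% and 21.9% of all genes. The 13 include Ddx4, whose promoter the Venus gate reads, so its rise cannot be told apart from the gate. In PGCs relative to control ES cells 15 were higher and 4 lower (median 2.57), against 43.2% and 32.4%. Mov10l1, the helicase of piRNA biogenesis, was 4.39 higher in Max knockdown cells and Fkbp6, a co-chaperone of that pathway, 3.83 higher (limma, adjusted p = 7.1e-07 for each). Tdrd5, a Tudor domain protein, was 6.39 higher in PGCs than in control ES cells (limma, adjusted p = 9e-09), while its Max knockdown minus control value was 0.14 and did not pass. Dnmt3b, a de novo DNA methyltransferase, was -3.05 in PGC minus control, with levels of 0.66 ± 0.04 in PGCs and 3.71 ± 0.01 in control ES cells (SD, n = 3 each).

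Among 16 tested cytokinesis and midbody genes, the setting of TEX14, 3 rose and 4 fell in Max knockdown cells (median 0.06), counts near the 18.2% higher and 21.9% lower of all genes. In PGCs relative to control ES cells 5 rose and 7 fell (median -0.09), against 43.2% and 32.4%. Racgap1, a component of the centralspindlin complex, was -0.80 in Max knockdown minus control, and Rbm44, an RNA-binding protein of germ cell bridges, was 0.81 (limma, adjusted p = 0.00023 and 0.0012). Rbm44 was 4-fold higher in PGCs than in control ES cells, and Septin9, a cytoskeletal septin, was -2.07 in PGC minus control (limma, adjusted p = 1.2e-06 and 1.9e-06).

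The list for TEX19, of N-end rule ubiquitin ligases and cohesins, gave 1 higher and 1 lower of 11 in Max knockdown cells (median 0.27), against 18.2% and 21.9% of all genes. In PGCs relative to control ES cells 7 were higher and 0 lower (median 0.40), against 43.2% and 32.4%. The higher gene in Max knockdown cells was Smc1b, a meiotic cohesin, at 2.19, which was also 2.19 in PGC minus control (limma, adjusted p = 8.6e-06 and 4.7e-07). The lower was Ube2b, an E2 ubiquitin-conjugating enzyme, at -0.40 (limma, adjusted p = 0.0032), and it was 1.08 in PGC minus control. Stag3, another meiotic cohesin, was well above background on no control array. With the control set at the floor used for Tex16, it was 619-fold higher in PGCs, which is not a strict lower bound.

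Sperm surface and Ly6 genes are the setting of TEX101. Of 20 with a probe, 13 were tested, and the filter lets a gene pass through the group in which it is high. In Max knockdown cells 5 of the 13 rose and 1 fell (median 0.34), against 18.2% and 21.9% of all genes. In PGCs relative to control ES cells 6 rose and 4 fell (median 0.41), against 43.2% and 32.4%. Ly6k, which encodes a partner of TEX101, was 2.40 in Max knockdown minus control (limma, adjusted p = 1.7e-05), but -0.67 in PGC minus control and -3.07 in PGC minus Max knockdown, both called lower. Its order across groups thus differed from that of Tex101. Clgn, a chaperone of sperm membrane proteins, was likewise 0.95 in Max knockdown minus control (limma, adjusted p = 0.00028) and -0.45 in PGC minus control. Dpep3, a membrane dipeptidase, was 2.13 and Ly6d 3.07 in PGC minus control, with 2 and 1 of 3 control arrays well above background (limma, adjusted p = 0.00012 and 0.00013).

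For the rixosome genes and partners, the setting of TEX10, 2 of 8 rose and 3 fell in Max knockdown cells (median -0.09), against 18.2% and 21.9% of all genes. In PGCs relative to control ES cells 7 rose and 1 fell (median 0.68), against 43.2% and 32.4%. Sox2, a pluripotency factor, was 0.57 in Max knockdown minus control and -1.07 in PGC minus control (limma, adjusted p = 0.0062 and 4.9e-05). Nol9, a kinase of ribosomal RNA processing, was -0.39 in Max knockdown minus control (limma, adjusted p = 0.0088) and 0.79 in PGC minus control. Mdn1, the ribosome-remodelling ATPase, was 1.73 higher in PGCs than in control ES cells (limma, adjusted p = 8.4e-07).

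Lipid-transfer genes are the setting of TEX2. Of 13 tested, 3 rose and 0 fell in Max knockdown cells (median 0.08), against 18.2% and 21.9%, and 5 rose and 5 fell in PGCs relative to control ES cells (median -0.13), against 43.2% and 32.4%. C2cd2l and Osbpl8, both at contacts of the endoplasmic reticulum with the plasma membrane, were 0.70 and 0.45 in Max knockdown minus control (limma, adjusted p = 0.00072 and 0.02). Esyt1 and Esyt3, extended synaptotagmins of the same contacts, were -3.57 and -1.98 in PGC minus control (limma, adjusted p = 1.1e-08 and 1e-06). PGC values in these lists carry the scaling limit given above.

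**Figure D4:**
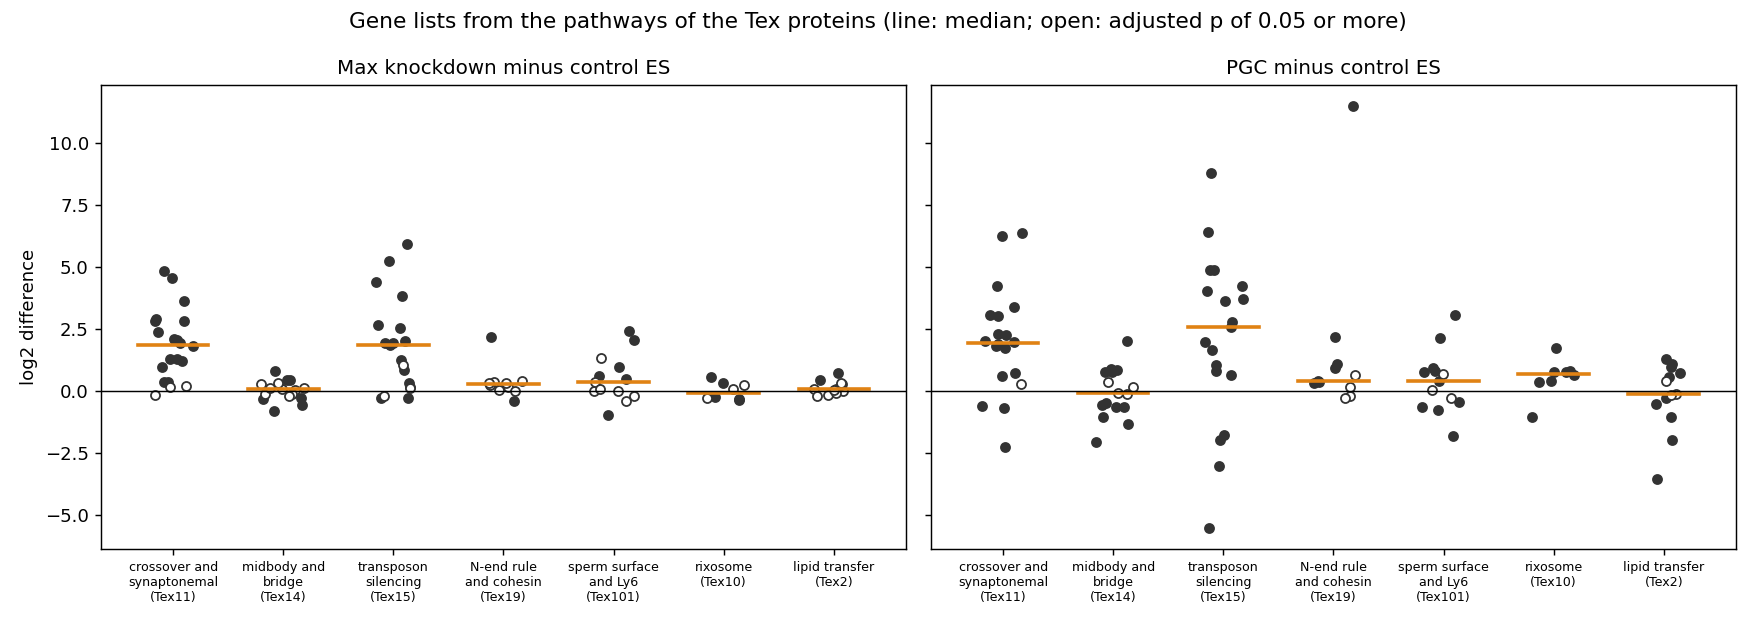
Log2 differences of the tested genes in each list, for Max knockdown minus control on the left and PGC minus control on the right; lines are list medians and open points did not pass the test. Medians are highest for the crossover and silencing lists in both panels. The Stag3 point in the ubiquitin and cohesin list is set against control arrays on which it was not well above background.

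The 9 Tex genes were also set against all 14444 tested genes with a symbol by the root mean square difference of centred log2 levels over the 9 arrays. Nearest to Tex11 were Derl3 (0.17) and Mael (0.18), and nearest to Tex15 were Tktl1 (0.21) and Slx (0.26). Tex14 lay closest to Spa17 (0.10) and Brdt (0.13), Tex19.1 to Xlr3a and Gm4371 (0.14 each), Tex19.2 to Hfm1 (0.21) and Magea8 (0.30), and Tex101 to Nt5el (0.31) and Myt1l (0.34). For the others the nearest distances were shorter, at 0.06 for Tex9 (Kbtbd4 and Polr2g), 0.05 for Tex10 (Vps11 and Med4) and 0.05 for Tex2 (Usp40). Among the 9 genes themselves the shortest distances were 0.18 for Tex10 and Tex2, 0.26 for Tex9 and Tex2, and 0.27 for Tex11 and Tex15. A short distance is easier for a gene that varies little.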

How the data were processed

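RNA was measured on 9 one-colour Agilent arrays from 100 ng of RNA each, and the design text calls the 3 arrays of a group biological replicates. The deposited intensity values are the processed signals of the authors' scanner files. Feature Extraction version 10.7.3.1 wrote these intensity values per the file headers. The authors' deposited log2 table, of which the scale and centring are not stated, was compared with the scanner values and used as an alternative only.

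From those signals, control spots and flagged probes were left out (39364 of 39429 probes kept), log2 signals were set relative to each array's 75th percentile, and the probe with the highest mean stood for a gene. Probes were named from RefSeq tables (GRCm38.p6, names and promoters only) where they matched, 26012 in all. The array annotation is for mm9 per the file headers. Between 58.2% and 67.6% of spots were well above background, which limits precision for dim probes, and 0 spots were saturated. A gene entered the test where each array of some group had it well above background. The test used limma 3.58.1 in R 4.3.3 and Benjamini-Hochberg adjustment over 20443 genes at 0.05, over 3 comparisons. The fit was tested on simulated data. The smallest p that an exact permutation test of 1 gene could give at this size is 0.1.

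The members and gene lists were chosen with earlier results of these data known. All 9 members are named. Of other Tex genes, the rule names the 2 largest rises and falls among those past the test with no overlap of arrays. Of each list it names the 2 genes with the lowest p in Max knockdown minus control and in PGC minus control, and for each member its 2 nearest genes. Tex30 was named outside that rule, after its values were seen. Alternatives were quantile and spike-in scaling, normexp background correction (on median signals, as the files hold no mean signals), other filters and probes, slide or replicate as a block, and leaving out each array.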

Additional observations from a re-analysis of the deposited data

How the results depend on the processing

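With quantile normalisation the Max knockdown minus control value of Tex10 was 0.05, with spike-ins 0.00 and on the second slide 0.03, and leaving out arrays gave -0.05 to 0.01. Normexp turned that of Tex2 to -0.05. Spike-ins turned PGC minus control to -0.04 for Tex9, and PGC minus Max knockdown to -0.82 for Tex15, which was -0.11 as the mean of probes. PGC minus Max knockdown of Tex11 was 0.20 with normexp, 0.12 as the mean of probes, 0.29 with its other probe and -0.12 to 0.04 with arrays left out. None of these signs belonged to a difference that had passed the test, except Tex9. Across the 9 genes and the alternatives, 483 values kept direction and side of the threshold, and 15 changed sign. The Tex9 value among these 15 also lost its call. A further 11 lost a call without a change of sign, and 1 gained one. Of these genes, 2 were called higher in PGC minus Max knockdown with spike-ins.

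For the other Tex genes, calls higher in Max knockdown minus control were 1 with spike-ins, 0 with normexp (limma, 4 at an unadjusted p under 0.05), 3 with the filter on all 9 arrays and 2 on the second slide. In PGC minus control, 4 were higher with spike-ins, 4 with normexp and 5 with the filter, and 2 were lower with spike-ins. In PGC minus Max knockdown, 3 were higher with spike-ins, 4 with normexp and 5 with the filter, and 1 was lower with normexp and with the filter. The filter tests fewer genes; otherwise the cause was not tested. Over all genes, spike-ins gave 713 higher and 288 lower in Max knockdown minus control, normexp 565 and 319 (63.9% higher, 49.9% without 13 high-background spots, chosen after seeing the data), and the second slide 1246 and 1102, where each lone ES array is assumed to vary like the other groups. In PGC minus control, spike-ins gave 1158 higher and normexp 3023 higher and 2991 lower. In PGC minus Max knockdown, they gave 999 higher, and 3850 higher and 3345 lower. Replicate numbers were not used as pairs, because the ES groups share only 2 of them and the labels do not say what a number marks. Same-numbered Max knockdown and control arrays on the first slide had correlated deviations (0.37 and 0.39), those of different number on that slide did not (-0.07 and -0.03), and the only ES pair on the second slide, of different number, gave 0.51. The replicate block changed no call on the 9 genes, with 6, 9 and 7 higher.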
